A study of Mus musculus with 6 samples.

Results

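Unmethylated CpG sites that lie far from any transcription start site (TSS) and have few other CpG sites around them were examined in mouse GS cells, cultured spermatogonia among which are spermatogonial stem cells. A site was included if it was autosomal, lay more than 10000 bp from the closest TSS, had at least 10 reads in all 6 samples and fewer than 5 other sites of the deposited table within 100 bp, and had a mean methylation level under 10% over the 6 samples. This gave 13256 sites, which were 14.8% of the 89645 CpG-sparse distal sites, 1.94% of the 681804 sites that reached this coverage in every sample (commonly covered sites), and a small part of the 2268080 sites of the table. The rule used the methylation level in all 6 samples, so that the low level itself is how the sites were chosen and not a result. "CpG-sparse" describes the sites that were covered, since CpGs that no sample covered are not rows of the table. It was not checked against the genome sequence, because the genome given here was of another build.

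DNA methylation was measured by reduced representation bisulfite sequencing (RRBS), in which bisulfite converts unmethylated but not methylated cytosines, and the level of a site is the methylated share of its reads. The 6 samples were 3 replicates of GS cells that had been kept frozen for 6 months on the International Space Station (Space) and 3 replicates kept frozen for 6 months on Earth (Ground). All were labelled spermatogonia with the genotype DBA/Tg14(act-EGFP-OsbY01), which carries an EGFP transgene driven by an actin promoter, and both groups were frozen, thawed, and cultured again before the analysis. GS cells grow on feeder cells, and stem cells are only a part of the culture. No label states that the replicates came from separate animals or cultures, so p-values measure the spread between these samples, which may be technical.

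In most mammalian cells, CpGs outside CpG islands and active regulatory elements are methylated. Unmethylated stretches far from promoters are found at orphan CpG islands and at enhancers or other elements bound by transcription factors, where the level is often low but not zero. Developmental regulator genes are often surrounded by broad unmethylated domains. Spermatogonia carry a largely methylated genome in which germline gene promoters, closed by methylation in somatic cells, are open. Of 16 such promoters chosen as a check of the label, 11 had commonly covered sites within 1000 bp of the TSS and 10 of these had a mean level under 10%, among them *Ddx4* (2.46%) and *Dazl* (2.14%). The exception was *Dpep3*, with 2 sites and 25.998%. RNA was not examined.

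Summed over all sites of the table, a sample had 28535973 to 33743845 reads. At the unmethylated CpG-sparse sites the median coverage was 28, 25, and 27 reads in Space 1 to 3 and 24, 26, and 25 reads in Ground 1 to 3, and no site had more than 192 reads in a sample. A sample without methylated reads at the median coverage allows a level of up to 10.7% to 12.5% (3 reads of the coverage), and up to 30% at 10 reads. These limits cover counting error only, since reads without molecular identifiers can be copies of 1 molecule. Replicate 1 of both groups stood apart from the other samples, with a higher methylation level at these sites, at CpG-dense distal sites under 10%, and at sites under 10% near TSSs.

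The levels of CpG-sparse distal sites fell at both ends of the scale. Of the 89645 sites, 61.8% had a mean level of 90% to 100%, and each class of 10 percentage points between 10% and 80% held 1.86% to 3.30%. Among the 73853 CpG-dense distal sites (at least 5 other sites within 100 bp), 58.6% were under 10%, so that low levels were the common state there and the less common state at CpG-sparse sites.

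**Figure D1:**
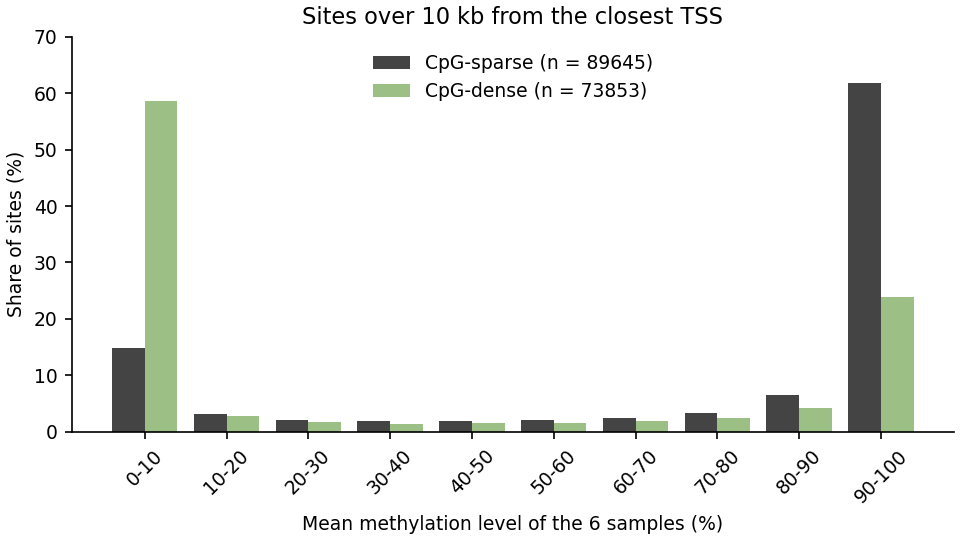
Share of sites (y axis, percent) in classes of the mean methylation level of the 6 samples (x axis, percent) for CpG-sparse and CpG-dense sites more than 10000 bp from the closest TSS. The lowest class held 14.8% of the CpG-sparse and 58.6% of the CpG-dense sites, and the highest class held 61.8% of the CpG-sparse sites.

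Within the unmethylated CpG-sparse sites, the median of the mean level was 2.76%, and the 10th and 90th percentiles were 0.595% and 7.09%. At 1046 sites (7.89%) no sample had a methylated read. These had a median of 107 reads over the 6 samples, which allows a level of up to 2.80%. At 8449 sites (63.7%) all samples were under 10%, 647 sites (4.88%) reached 20% or more in at least 1 sample, and none of the 13256 reached 50%. The highest level of a site in a sample was 41.7%. The threshold cut through a continuous range. The nearest sites below it were closest to *4930562C15Rik*, *Gcnt2*, and *Gm37068*, with means of 9.990%, 9.993%, and 9.994%. The nearest above it were closest to *C7*, *Zfp383*, and *Ikzf3*, with means of 10.002%, 10.004%, and 10.005%. The site near *Gm37068* ranged from 0% in Ground 2 to 22.2% in Space 1, so that samples at 1 such site differed far more than the sites on the 2 sides of the threshold.

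The share of CpG-sparse distal sites that were unmethylated differed with the number of covered CpGs around them and with the distance to the TSS. It was 7.14% at sites with no other table site within 100 bp, 10.6%, 14.5%, and 18.6% with 1, 2, and 3 others, and 23.3% with 4. It was 16.3% at 10000 to 20000 bp from the TSS, 14.7% at 50000 to 100000 bp, and 7.77% beyond 500000 bp. By chromosome it ranged from 11.4% on chromosome 14 to 17.7% on chromosome 19. These shares are descriptions, because neighboring sites share reads and are not independent. The median distance to the TSS was 32141 bp at the unmethylated sites and 36696 bp at the other CpG-sparse distal sites. Upstream of the closest TSS lay 47.1% of the unmethylated and 44.2% of the other sites.

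The unmethylated sites lay beside each other. Sites no more than 1000 bp apart were joined to a locus, which gave 6298 loci. A single site made up 3078 loci (48.9%), but 76.8% of the sites shared a locus with at least 1 other, and 484 loci with at least 5 sites held 21.4% of the sites. The median length of loci with 2 or more sites was 63 bp and the longest spanned 1852 bp. The nearest other unmethylated CpG-sparse site was within 1000 bp for 76.8% of the sites. The nearest other CpG-sparse distal site of any level was within 1000 bp for 77.3% of all CpG-sparse distal sites, although there were 89645 of these and 13256 unmethylated ones. Among sites with a commonly covered site on both sides within 1000 bp, both of these were under 10% at 80.4% of the unmethylated and 0.918% of the other CpG-sparse distal sites. The sites on either side can be CpG-sparse sites that the rule sorted by their level, and they can share reads. This contrast was therefore partly set by the rule.

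The sites around the unmethylated CpG-sparse sites had low levels too. CpG-dense sites, which were not used in the rule, were compared more than 100 and up to 1000 bp away. Around the unmethylated sites there were 17128 of them, whose mean level was 4.08%, 3.80%, and 3.57% in Space 1 to 3 and 4.10%, 3.53%, and 3.36% in Ground 1 to 3. Around the other CpG-sparse distal sites there were 12228, with 56.8%, 56.6%, and 56.5% in Space 1 to 3 and 57.0%, 56.3%, and 56.0% in Ground 1 to 3. The values of the 2 sets were far apart in every sample. The difference was -52.8 percentage points on average (-52.9 to -52.6 over the samples). It is given as a description with no p, because the 2 sets were defined from these samples and the same sites were read in each of them. The sets shared 2138 sites, which lay near sites of both kinds. With neighbors up to 5000 bp away the difference was -29.97 percentage points. Of the neighbors of unmethylated sites 96.1% were under 10%, against 27.5% of the neighbors of the other sites.

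At CpG-dense neighbors, the low level around the unmethylated sites reached about 1000 bp. This describes only a part of the sites, since 64.5% had no commonly covered CpG-dense site within 1000 bp. CpG-dense sites averaged 3.17% between 250 and 500 bp, 3.36% between 500 and 1000 bp, 6.37% between 1000 and 2000 bp, 15.3% between 2000 and 5000 bp, and 18.8% between 5000 and 10000 bp. Around the other CpG-sparse distal sites the level of CpG-dense sites ran the opposite way, from 76.3% at 1 to 100 bp to 26.5% between 5000 and 10000 bp. CpG-dense sites were taken at any distance from a TSS, so that the mix of sites can change along these ranges. All commonly covered neighbors include CpG-sparse sites, which the rule sorted by their level, so that their averages are partly set by the rule. These neighbors averaged 13.2% at 1 to 100 bp from the unmethylated sites. They averaged 5.12% between 250 and 500 bp and 39.6% between 5000 and 10000 bp. Around the other sites they went from 81.9% at 1 to 100 bp to 49.2% between 5000 and 10000 bp. A site can count at more than 1 distance, as it can lie near several CpG-sparse sites.

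**Figure D2:**
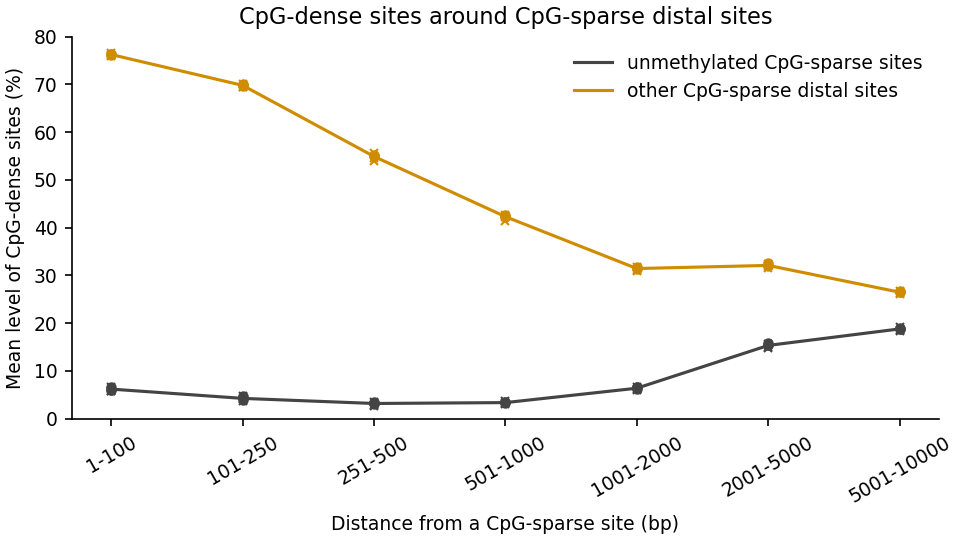
Mean methylation level of CpG-dense sites (y axis, percent) by their distance from an unmethylated CpG-sparse site or from another CpG-sparse distal site (x axis, bp, in unequal steps). Lines are means of 6 samples, circles are Space samples, and crosses are Ground samples, which lie on top of each other. The curves start at 6.18% and 76.3% and end at 18.8% and 26.5%.

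A CpG-dense site was not always at hand. Only 33.8% of the unmethylated CpG-sparse sites had a CpG-dense site under 10% within 1000 bp, 1.72% had only CpG-dense sites of 10% or more, and 64.5% (8553 sites) had no commonly covered CpG-dense site in this range. Of the other CpG-sparse distal sites, 1.69% had a CpG-dense site under 10% and 87.2% had none. The sites without a CpG-dense site had levels of 3.87%, 3.20%, and 3.25% in Space 1 to 3 and 3.95%, 2.99%, and 2.98% in Ground 1 to 3. Those beside an unmethylated CpG-dense site had 3.40%, 2.97%, and 2.96% in Space 1 to 3 and 3.65%, 2.85%, and 2.77% in Ground 1 to 3. In both sets the groups overlapped, and Space minus Ground was 0.132 (p = 0.6) and 0.0201 percentage points (p = 1, exact permutation tests, two-sided).

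The genes closest to the sites numbered 4639, of which 1759 had a single site and 118 had 10 or more. A closest gene is the one with the nearest TSS in the table, and no link between site and gene was measured. Protein-coding genes were closest to 57.9% of the unmethylated sites and to 58.7% of the other CpG-sparse distal sites, and long non-coding RNA genes to 36.9% and 36.4%. The gene types were matched by identifier. The shares of CpG-sparse distal sites that were unmethylated varied more between groups of genes with a common function, although each of these groups has few genes and its sites lie in few loci.

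Developmental regulators, transcription factors of homeobox, paired box, T-box, GATA, and related families, were closest to 648 CpG-sparse distal sites, of which 186 (28.7%) were unmethylated, beside 14.8% over all. These lay near 47 of the 95 such genes that had CpG-sparse distal sites. *Six3*, a homeobox gene of forebrain and eye development, had 17 sites, *Pax7* 16, *Gata4*, a regulator of heart and gonad development, 12, *Tbx4*, a hindlimb regulator, 11, and *Hoxc4*, a gene of body axis patterning, 8. At *Hoxc4* all 8 CpG-sparse distal sites were unmethylated, at *Gata4* 12 of 14, and at *Six3* 17 of 41. The 12 sites of *Gata4* (chr14:63478743-63489108, 20033 to 30398 bp from the TSS) had 4.02%, 1.07%, and 1.51% methylated reads in Space 1 to 3 and 3.02%, 4.80%, and 2.23% in Ground 1 to 3, and the groups overlapped.

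Spermatogonial genes, a list of 42 genes of stem cell maintenance and differentiation, were closest to 277 CpG-sparse distal sites. Of these, 57 (20.6%) were unmethylated, beside 14.8% over all. Many of the 57 lay near *Pax7* (16) and *Spry4* (9), so that the share leans on these genes. It was not computed without them. The 57 lay near 12 of the 25 listed genes that had CpG-sparse distal sites. *Pax7*, a transcription factor found in a small subset of spermatogonia, was also counted among the developmental regulators. It had the most of the 57, with 16 of 31 sites in 6 loci (chr4:139480426-139579804). Their methylated reads made up 1.30%, 3.72%, and 2.19% in Space 1 to 3 and 1.43%, 2.09%, and 1.22% in Ground 1 to 3. All 6 samples were low, and the other CpG-sparse distal sites closest to *Pax7* averaged 91.6%. *Spry4*, an inhibitor of FGF signaling, had 9 of 14 sites. Its levels were 2.57%, 3.23%, and 3.03% in Space 1 to 3 and 4.35%, 0.769%, and 2.09% in Ground 1 to 3. *Dmrt1*, a regulator of the switch from mitosis to meiosis in male germ cells, had 7 of 22 sites, with 4.19%, 0.667%, and 2.34% in Space 1 to 3 and 3.85%, 6.92%, and 5.10% in Ground 1 to 3. The Space mean was lower, but Space 1 was above Ground 1 (exact permutation p = 0.2).

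*Kit*, the receptor that marks differentiating spermatogonia, had 5 of 14 sites unmethylated, between 56347 and 61755 bp from its TSS, with 0% to 3.16% per sample. *Upp1*, a uridine phosphorylase, had 4 sites within 1 locus, at 0% in all Space samples (224 reads, which allow up to 1.34%) and at 7.81%, 0%, and 1.04% in Ground 1 to 3. *Etv5*, a transcription factor downstream of GDNF, had 3 of 32 sites with 2.94% to 13.1% per sample, *Fgfr3*, an FGF receptor, 2 of 9 with 0% to 6.67%, and *Gdnf*, the self-renewal factor itself, 2 of 11 with 0% to 7.41%. *Sall4*, a zinc finger factor of undifferentiated spermatogonia, had 3 of 10 with 0.962% to 7.14%. *Foxo1*, a factor of stem cell maintenance, had 3 sites in 1 locus, 12355 to 12461 bp from the TSS, with 17.8% in Space 1, 2.38% in Space 2, and 0% in Space 3 and all Ground samples. The Space mean of 6.72% ± 9.65 (SD, n = 3) thus rested on Space 1, while the 174 Ground reads allow up to 1.72%. In the exact permutation test of the *Foxo1* sites p was 0.4.

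The other lists showed a range of shares. Germline genes had 7 unmethylated of 37 CpG-sparse distal sites (18.9%), near *Rpl10l*, *Stk31*, and *Mael*. Zinc finger genes had 140 of 875 (16.0%) and ribosomal protein genes 44 of 277 (15.9%). Genes with only a systematic name (Gm and a number, or ending in Rik) had 5466 of 36705 (14.9%). Smell receptor genes, which lie in large clusters that are silent outside sensory tissue, had 55 of 740 (7.43%). MicroRNA host genes had 20 of 49 (40.8%), but these sites lay near only 3 genes, *Mir99ahg* with 13, *Mir100hg* with 5, and *Mir670hg* with 2. The shares were not tested, as sites of 1 gene share fragments and reads.

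The 10 closest genes with the most sites were *Tfap2c*, *Gm32479*, and *Gm39244* with 23 each, *Nfatc2* with 21, *Sowahb* and *Gmpr* with 19, *Gm35610* with 18, and *Gm56850*, *B3glct*, and *Ank2* with 17. *Tfap2c* encodes AP-2 gamma, a transcription factor of primordial germ cells and early spermatogonia. Its 23 sites (chr2:172378224-172580815) were 45.1% of its CpG-sparse distal sites and lay in 10 loci, 13289 to 189302 bp from the TSS. They had 5.83%, 2.35%, and 2.63% methylated reads in Space 1 to 3 and 5%, 1.21%, and 2.75% in Ground 1 to 3. Replicate 1 was the highest in both groups, and the groups overlapped. The other CpG-sparse distal sites closest to *Tfap2c* averaged 85.04%.

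*Nfatc2*, a calcium-dependent transcription factor, had 21 of 57 sites in 9 loci (chr2:168303608-168485480). The levels were 3.38%, 2.09%, and 1.32% in Space 1 to 3 and 4.34%, 2.66%, and 1.79% in Ground 1 to 3, again highest in replicate 1. *Gmpr*, a GMP reductase of purine metabolism, had 19 of 29 sites in 4 loci, with 1.22% to 5.45% per sample. *Sowahb*, an ankyrin repeat protein, had 19 of 36 with 1.63% to 5.69%. *B3glct*, a glucosyltransferase, had 17 of 21 (81.0%) with 1.23% to 4.29%, and *Ank2*, a membrane-cytoskeleton adaptor, had 17 of 25 with 2.04% to 5.93%. *Gm56850*, a predicted gene, had 17 of 41 with 2.36% to 8.31%. Space and Ground samples overlapped at all of these genes.

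The groups did not overlap at 3 of the 10 genes, all long non-coding RNA genes. *Gm32479* (chr6:51145809-51249359) had 2.93%, 2.32%, and 2.88% in Space 1 to 3 and 1.86%, 1.32%, and 1.39% in Ground 1 to 3. *Gm39244* (chr8:108968089-109133968) had 4.13%, 4.09%, and 7.05% in Space and 3.89%, 1.45%, and 2.48% in Ground. *Gm35610* (chr19:44671590-44714474) had 4.43%, 4.92%, and 4.49% in Space and 4.28%, 3.99%, and 2.66% in Ground. All 3 were higher in Space, by 1.18, 2.48, and 0.973 percentage points, each with an exact permutation p of 0.1, the smallest that 3 against 3 samples allow. Of the 118 genes with at least 10 sites, 9 were higher without overlap and 5 were lower. Among all 16644 closest genes with at least 10 commonly covered sites, 6.55% were higher without overlap and 3.27% were lower, so that the 9 (7.63%) and 5 (4.24%) of 118 genes were close to the background.

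**Figure D3:**
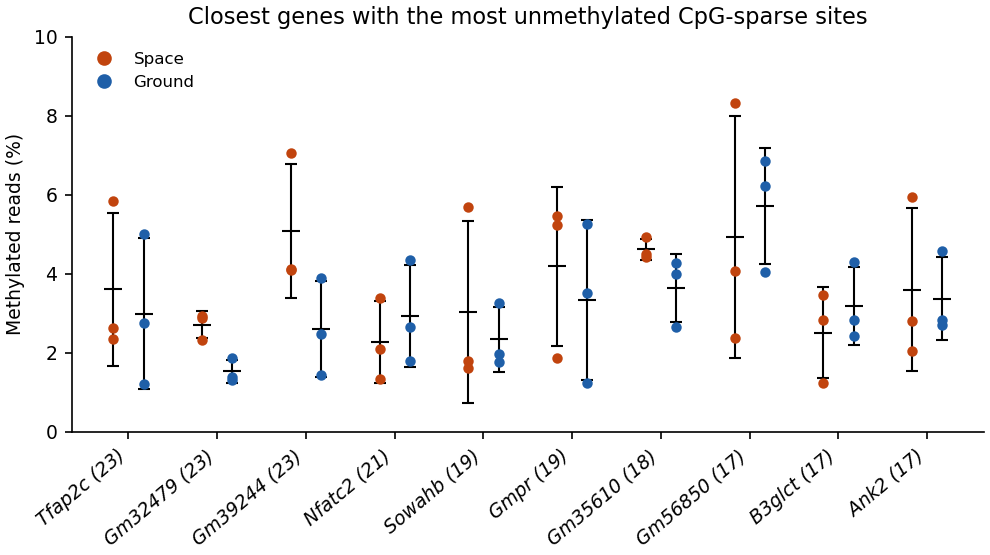
Methylated reads (y axis, percent of the reads at unmethylated CpG-sparse sites) in each sample for the 10 closest genes with the most such sites, whose number is given in parentheses. Points are samples and bars are means ± SD (n = 3). Space points lay above all Ground points at *Gm32479*, *Gm39244*, and *Gm35610* and overlapped with them at the other 7 genes.

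The 5 loci with the most sites were at most 1601 bp long. The first had 13 sites (chr13:55319437-55320176) and lay 18984 to 19723 bp from the TSS of *Fgfr4*, an FGF receptor. Its methylated reads were 3.12%, 0.976%, and 0% in Space 1 to 3 and 1.84%, 5.05%, and 3.03% in Ground 1 to 3, with 10 to 27 reads per site and sample. The groups overlapped. Within 5000 bp of this locus there were 3 other commonly covered sites, of which 2 had mean levels of 37.4% and 69.9%, the nearer one 729.5 bp from its centre.

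The locus near *Gm57312* (chr5:125482042-125483642) had 12 sites and 31 other commonly covered sites within 5000 bp, all 31 under 10%. The locus near *Gmpr* (chr13:45720568-45722021) had 11 sites and 30 others, of which 28 were under 10%. The other 2 had 15.3% and 83.0%, the nearer one 6.5 bp from the centre and thus within the span of the locus. The loci near *Gm7596* (chr5:32581052-32581927) and *Gm14262* (chr2:168153167-168153562) also had 11 sites. Around *Gm7596* 8 of 11 other sites had 14.2% to 33.2%, the nearest 4073.5 bp from the centre. The per-sample levels of these 4 loci ranged from 0% to 7.43%, and Space and Ground overlapped in each. In the quasi-binomial test described below, the adjusted p of the 5 loci was 0.996 to 1 (limma squeezeVar, Benjamini-Hochberg).

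**Figure D4:**
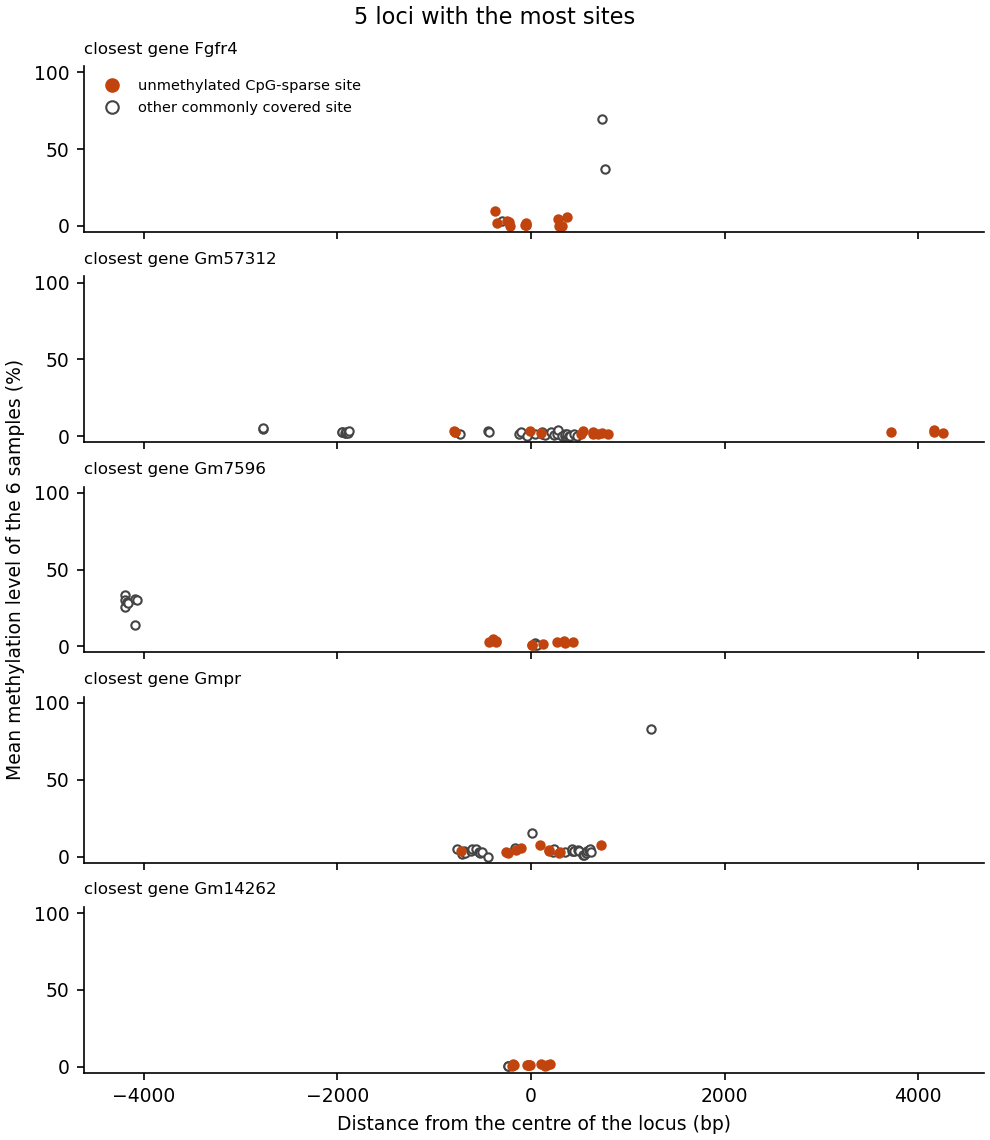
Mean methylation level of the 6 samples (y axis, percent) at commonly covered sites within 5000 bp of the 5 loci with the most unmethylated CpG-sparse sites, by distance from the centre of the locus (x axis, bp). Filled points are unmethylated CpG-sparse sites and open points are other commonly covered sites. Open points of 37.4% and 69.9% lie to the right of the *Fgfr4* locus, and all open points around *Gm57312* are under 10%.

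Space and Ground GS cells were then compared over all sites. The mean level of the 13256 sites was 3.73%, 3.13%, and 3.17% in Space 1 to 3 and 3.87%, 2.95%, and 2.92% in Ground 1 to 3. Replicate 1 was the highest in both groups, and the groups overlapped. The means were 3.34% ± 0.338 (SD, n = 3) in Space and 3.24% ± 0.539 (SD, n = 3) in Ground, a difference of 0.1001 percentage points that was smaller than the spread between replicates (p = 0.6, exact permutation test, two-sided, smallest possible p 0.1). It turned to -0.0946 without Space replicate 1, to -0.0476 without Ground replicate 2, and to -0.0633 without Ground replicate 3, and it was 0.411 without Ground replicate 1.

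Sites with 0 methylated reads made up 43.0%, 51.4%, and 49.4% in Space 1 to 3 and 45.3%, 51.8%, and 53.4% in Ground 1 to 3. The groups overlapped and differed by -2.24 percentage points (p = 0.5, exact permutation test), and it turned to 0.234 without Space replicate 1. This share also moves with coverage, whose median was 24 to 28 reads and was the highest in Space 1. The part of coverage in the difference was not tested.

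The CpG-dense distal sites under 10% gave a comparison with another kind of unmethylated site. Their mean level was 2.24% ± 0.208 (SD, n = 3) in Space and 2.11% ± 0.405 (SD, n = 3) in Ground. In the mean over sites, the CpG-sparse sites lay above them by 1.12 percentage points on average (0.985 to 1.30), in 6 of 6 samples. With reads pooled over sites the order was reversed in every sample. Pooling gives deep sites more weight. In Space 1 a CpG-dense site reached 8203 reads, while the CpG-sparse sites reached at most 192. The part of such deep sites in the pooled order was not tested. The pooled level averaged 3.46% in Space and 3.35% in Ground at the CpG-sparse sites. At the CpG-dense sites it averaged 4.22% and 4.09%. Both orders are descriptions, because the level chose both sets. In the mean over sites, Space minus Ground differed between the 2 kinds of site by -0.0261 percentage points (p = 0.7, exact permutation test). This difference turned to 0.0360 without Space replicate 2 and to 0.0557 without Ground replicate 1.

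**Figure D5:**
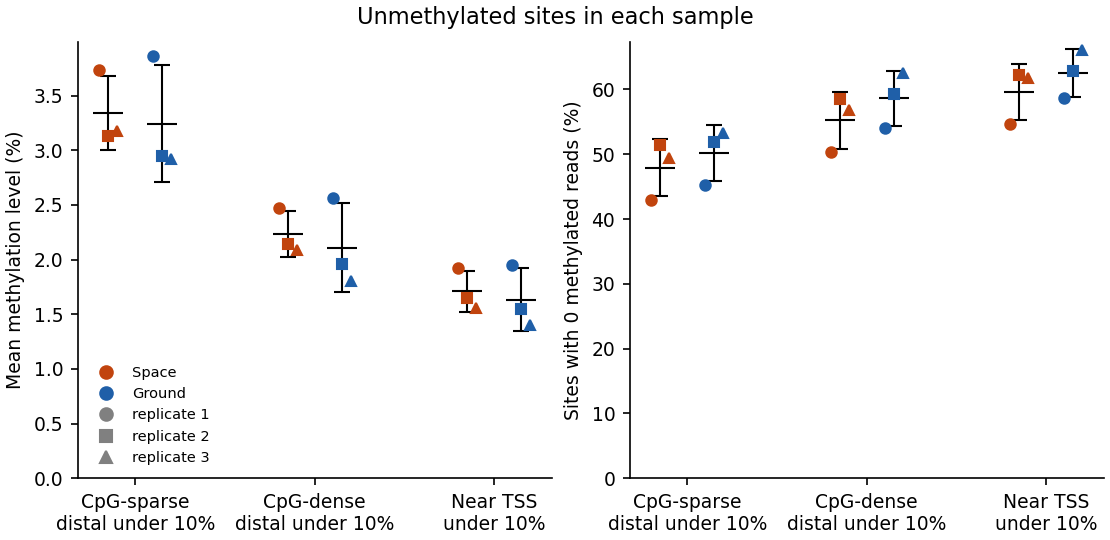
Mean methylation level (left, y axis in percent) and share of sites with 0 methylated reads (right, y axis in percent) in each sample, at the unmethylated CpG-sparse distal sites, at CpG-dense distal sites under 10%, and at sites under 10% within 1000 bp of a TSS. Points are samples, shaped by replicate number, and bars are means ± SD (n = 3). Replicate 1 of Space (3.73%) and of Ground (3.87%) are the highest at the CpG-sparse sites, and the groups overlap in every set.

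At single sites, the group means differed by a median of 1.82 percentage points in size, and 95% of the sites differed by less than 6.83. The mean of Space was over 5 percentage points higher at 819 sites (6.18%) and over 5 lower at 761 (5.74%). Over all commonly covered sites these shares were 4.82% and 4.32%, and over the 527478 commonly covered sites with a mean under 10% they were 2.04% and 1.88%. The shares of the unmethylated CpG-sparse sites were above both backgrounds in both directions. At CpG-dense distal sites under 10% the shares were 3.20% and 2.43%. The sets differed in level and coverage. The mean level of the CpG-sparse sites, 3.34% in Space and 3.24% in Ground, was above that of sites under 10% near TSSs (1.71% and 1.63%). The median coverage of the CpG-sparse sites, 24 to 28 reads, was below that of sites under 10% near TSSs, which averaged 32.7 reads in Space and 30.7 in Ground. The parts of level and coverage in these shares were not tested. A minimum of 20 reads left 240 and 193 sites, of 6310 that passed it. These were smaller shares than at the minimum of 10 reads, and no background was counted at 20 reads. The means were over 10 percentage points higher at 85 sites (0.641%) and lower at 71 (0.536%). These shares were below the 1.13% and 0.916% of all commonly covered sites, which include those of intermediate level, and above the 0.1% and 0.0868% of the commonly covered sites with a mean under 10%. The 3 Space and 3 Ground levels did not overlap at 392 sites (2.96%) that were higher and at 322 sites (2.43%) that were lower in Space, close to the 2.66% and 2.33% of all commonly covered sites.

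In the site test, methylated and total reads were compared with a quasi-binomial model, with limma used to moderate its dispersion. It was run on the 92041 sites of the table with a mean level of 5% to 95%, to which 2912 of the 13256 sites belonged, while the other 10344 were below 5% and were not tested. After Benjamini-Hochberg adjustment over all tested sites, 0 of the 2912 passed the threshold of 0.05, beside 0% of all sites tested. An unadjusted p under 0.05 was found at 165 of the 2912 and at 5.47% of all sites tested. Limma on log2 ratios and Fisher's exact test on pooled reads also called 0 of the 2912.

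The site with the smallest p was closest to *Gm35610* (chr19:44707942), with 20.6%, 5.56%, and 25.9% in Space 1 to 3 and 0%, 2.50%, and 0% in Ground 1 to 3, at 27 to 40 reads. Its adjusted p in this limma-moderated test was 0.554. The next were closest to *Armc10* (chr5:21878437), *4930471E19Rik* (chr10:120518111), *Gas2l2* (chr11:83310133), and *Gm15857* (chr5:123435681), each with an adjusted p of 0.830. The site near *4930471E19Rik* had the largest difference of all 13256 sites, with 23.1%, 20%, and 14.3% in Space and 0% in all Ground samples, but it had only 55 Ground reads, which allow up to 5.45%. The site near *Gas2l2*, a linker of actin and microtubules, went the other way, with 0% in all Space samples (91 reads, up to 3.30%) and 20.8%, 10.7%, and 3.33% in Ground. These 5 sites were chosen by their p, so that their separation is no support for a difference.

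Since neighboring sites share reads, reads were also summed over each locus. Of the 6298 loci, 3030 had at least 10 methylated and 10 unmethylated reads. They were tested together with loci of the other commonly covered sites that met this minimum, 57849 in all. Of the 3030, 0 passed an adjusted p of 0.05, beside 0% of all loci tested, and 121 had an unadjusted p under 0.05, beside 4.99% of all loci. Fisher's exact test on reads pooled over replicates called 107 of the 3030 and 6.44% of all loci, but it ignores the spread between replicates. Limma on log2 ratios called 0.

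The 5 loci with the smallest p in this test were all higher in Space. The locus near *1700039E22Rik* (chr19:44871304-44871374) had 4 sites and 9.18%, 12.5%, and 3.66% in Space 1 to 3 against 0.714%, 0.962%, and 0% in Ground 1 to 3, and an adjusted p of 0.921 in the limma-moderated test. The locus near *Soat2*, an enzyme of cholesterol ester synthesis (chr15:102069212-102069354), had 5 sites and 5.48%, 20%, and 11.1% in Space. In Ground it was at 0% in 221 reads, which allow up to 1.36%, and the adjusted p was 0.961 (limma). The locus near *Usp7*, a deubiquitinase (chr16:8555420-8555423), had 2 sites only 3 bp apart and 4.08%, 4.35%, and 6.43% in Space, with 0% in 304 Ground reads (up to 0.987%). The other 2 loci, near *Gm15857* and *4930471E19Rik*, held sites already named. All 5 loci were separated between the groups, but they were picked from 3030 by this measure.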

How the data were processed

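Per the labels, genomic DNA of 3 Space and 3 Ground samples was prepared with an RRBS kit. The submitters' processing notes name Trim Galore, Bismark 0.24.2, methylKit, and the build mm39, whose coordinates are used here. The authors deposited 1 table that gives each CpG a coverage (count of reads), the methylated percent, and the closest TSS with its distance. No row had another row 1 bp away, so that each CpG was 1 row. All 6 samples had columns, and 0 columns were left unmapped. The reference given here was GRCm38, so no sequence, exon, or intron was read, and only gene types were matched, by identifier, to GENCODE annotation.

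Bismark counts a T at a reference C as unmethylated. A C-to-T difference between the strains of these cells and the reference would therefore read as an unmethylated site, and this was not tested.

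The count of methylated reads was taken as coverage times the deposited percent. Levels are means over sites, except for genes and loci, where reads were summed. Site and locus tests were quasi-binomial, with the Pearson dispersion moderated by squeezeVar of limma 3.58.1 (R 4.3.3), and were tested on simulated data. Samples with a fitted level of 0 were left out of the residual degrees of freedom. Values with 1 number per sample were put to exact two-sided permutation tests. Python 3.11.15 and matplotlib 3.10.9 were used. Coverage ranged from 10 to 192 reads per site and sample.

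The sites and gene lists were chosen with earlier results of these data known. Named are the 10 closest genes and 5 loci with the most sites, the 5 sites and 5 loci with the smallest p, the 3 sites on each side of the threshold, and up to 10 spermatogonial genes closest to a site. Examples of other lists were the genes with the most sites in them. Alternatives were other coverage minimums, windows, distances, thresholds, joins, and tests, leaving out each replicate, and pairing by replicate number. Deviations from the group means correlated over sites by -0.0207 to 0.00596 between same-numbered samples. A correlation over sites cannot see a shift common to all sites, such as the higher level of replicate 1. It therefore cannot decide whether the numbers pair the samples.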

Additional observations from a re-analysis of the deposited data

How the results depend on the processing

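The number of sites depended on the definition, with 21433 at a minimum of 5 reads, 6310 at 20 reads, 6656 with a 200 bp window, 1021 with no other table site within 100 bp, and 4676 beyond 50000 bp, beside 13256. Space minus Ground in the mean level stayed within the spread in all of these, and it was -0.00786 percentage points beyond 50000 bp. Leaving out 1 replicate moved it from -0.0946 to 0.411 (below 0 without Space replicate 1, Ground replicate 2, or Ground replicate 3), the share with 0 methylated reads from -4.68 to 0.234 (above 0 without Space replicate 1), and the difference from CpG-dense sites from -0.102 to 0.0557 (above 0 without Space replicate 2 or Ground replicate 1). Without replicate 1 of both groups, an alternative chosen after seeing the data, the mean level differed by 0.216 (p = 0.333, exact permutation test). Sites that differed by more than 5 percentage points numbered 1860 higher and 1709 lower of 21433 at a minimum of 5 reads, and 240 and 193 of 6310 at 20 reads. The shares at 20 reads were smaller than at the minimum of 10 reads. No background was counted at these other minimums. For more than 10 percentage points the counts were 85 and 71 of 13256. Over other windows, thresholds, and neighbors, the neighbor difference was -61.1 to -29.97 percentage points, the smallest with neighbors up to 5000 bp away. The -61.1 came from all commonly covered neighbors. These include CpG-sparse sites that the rule sorted by their level, so that this value was partly set by the rule. With 1 sample left out, the difference at CpG-dense neighbors was -52.8 to -52.8. Fisher's exact test on pooled reads called 107 of the 3030 loci, beside 6.44% of all loci tested. The other alternatives called 0 of the unmethylated CpG-sparse sites and 0 of their loci. Among all 92041 sites tested, 1 was called without Space replicate 3 and 5 without Ground replicate 1.

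With a replicate block, pairing by number gave 0.1001 for the mean level (p = 0.5), -2.24 for the share with 0 methylated reads, and -0.0261 for the difference from CpG-dense sites (p = 0.25 for both, exact sign-flip tests, the smallest that 3 pairs allow), and it called 0 sites and 0 loci. The correlations of same-numbered samples given above cannot decide whether the samples are paired. Depth limits single sites, where 10 reads without a methylated read allow up to 30%.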

Other observations

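Some of the unmethylated CpG-sparse sites stood alone between methylated ones. Of the 5620 sites with a commonly covered site on both sides within 1000 bp, 4520 (80.4%) had both neighbors under 10%, and 184 (3.27%) had both at 80% or more. The 184 lone sites averaged 1.60% ± 0.255 (SD, n = 3) in Space and 1.46% ± 0.354 (SD, n = 3) in Ground, which is 0.133 percentage points apart (p = 0.8, exact permutation test). No sample had a methylated read at 47 (25.5%) of them, against 7.37% of the sites whose neighbors were both under 10%, while the median coverage of the lone sites was 19.8 reads. The lone site with the most reads was closest to *Gm50339* (chr19:47290348), with 1 methylated read of 317 in all samples, between sites of 95.4% at 41 bp and 95.2% at 15 bp. The next were closest to *Gm44366* (chr6:134838333, 1 of 274 reads) and *Mtmr10* (chr7:63898041, 5 of 272 reads), the latter between sites of 93.6% and 97.0% at 3 and 4 bp. Whether these cytosines are intact in the strain of the cells was not tested. These 3 sites were chosen after their values were seen.

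On the X chromosome, which the rule left out, 209 of 1109 CpG-sparse distal sites (18.8%) had a mean level under 10%, with 3.84%, 3.23%, and 3.45% in Space 1 to 3 and 4.81%, 3.15%, and 2.75% in Ground 1 to 3. Replicate 1 was again the highest in both groups.

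Among further spermatogonial genes, named after their values were seen, *Nanos2*, an RNA-binding regulator of stem cells, had 2 of 3 CpG-sparse distal sites unmethylated, with 0% to 8.93% per sample. *Zbtb16*, which encodes PLZF, had 1 of 17, with 0 methylated reads in 131 Space and 90 Ground reads, which allow up to 2.29% and 3.33%.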
